A study of Homo sapiens with 9 samples.

Results

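The genes described here are 33 of the 60612 genes in the deposited tables. They were chosen by symbol as genes that license, fire and copy replication origins, supply nucleotides, or belong to the E2F system that switches this machinery on. All 33 had enough counts to be tested. RNA came from HSC-3, a human oral squamous carcinoma line, in 3 groups of 3 libraries. MPTN was taken as the line grown with apatinib until it no longer responded, MPTN24 as HSC-3 exposed to apatinib for 24 h, and WT as the untreated parental line. The labels do not spell out MPTN or MPTN24, and do not state whether the resistant line was a pool or a clone, or whether the drug was in its medium at harvest. Apatinib is an oral tyrosine kinase inhibitor aimed mainly at the VEGF receptor encoded by KDR, which had 0 counts in all 9 libraries.

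Cells load the MCM2 to MCM7 ring onto origins in G1 with the help of ORC, CDC6 and CDT1, and fire those origins in S phase once CDC45 and GINS turn the ring into a moving helicase. E2F transcription factors, held back by the pocket proteins until cyclin-dependent kinases release them, drive transcription of most of these genes as cells approach S phase. Their summed RNA therefore varies with the share of a culture that is about to replicate or is replicating its DNA. In RNA from whole cultures, fewer cells in S phase and less of each transcript per cell cannot be told apart.

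Deposited counts summed to between 60383313 and 98890929 per library, and 19947 to 21374 genes had a count. Counts are given as CPM, counts scaled to library size after TMM normalisation. The replicates' origin is not stated, so p-values measure only the spread between these samples, which may be technical. Replicates were compared by a chi-square per degree of freedom, on counts divided by 4, for genes with a mean count above 100. WT 1 stood apart from the other WT libraries, at 44.0 and 46.2, against 12.7 between WT 2 and WT 3. MPTN 3 also differed from MPTN 1 and MPTN 2 (25.9 and 20.3, against 4.0 between those). Each of 9 squamous markers was present in all libraries. The leukocyte genes PTPRC, CD3E, TYROBP and NKG7 were at 0 in all libraries. CD79A, the remaining leukocyte marker, reached at most 0.0947 FPKM (MPTN24 3). The summed level of 6 fibroblast markers was 2.29 to 2.82 FPKM in MPTN, 2.47 to 3.62 FPKM in MPTN24 and 2.43 to 3.88 FPKM in WT. That of 5 endothelial markers, KDR among them, was 0.0599 to 0.137 FPKM in MPTN, 0.0785 to 0.151 FPKM in MPTN24 and 0.0105 to 0.141 FPKM in WT. Mitochondrially encoded genes took 4.66% to 5.13% of counts in MPTN, 5.04% to 5.73% in MPTN24, 4.74% in WT 1, 2.72% in WT 2 and 3.02% in WT 3. The part of that share in the results was not tested.

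The promoters of these genes are where E2F acts, so 4 of them are printed, from the RefSeq promoter table on GRCh38.p14, 5′ to 3′ on the gene's own strand, from 250 bases before to 20 bases after the start of transcription. Capitals mark any of 4 E2F-type words of 8 letters, TTTCCCGC, TTTGGCGC, TTTCGCGC and TTTGCCGC, read on either strand. E2F1 (chr20:33686366-33686635, minus strand) is shown because it encodes the factor itself. CDC6 (chr17:40287629-40287898, plus strand) and CLSPN (chr1:35769959-35770228, minus strand) are among the 12 genes that fell in every comparison. MCM10 (chr10:13161308-13161577, plus strand), also among those 12, fell furthest in MPTN against WT and holds none of these words. CDC45, FEN1, RRM1 and RRM2, of the same 12, hold none either. A link between the words and the falls was not tested.
E2F1: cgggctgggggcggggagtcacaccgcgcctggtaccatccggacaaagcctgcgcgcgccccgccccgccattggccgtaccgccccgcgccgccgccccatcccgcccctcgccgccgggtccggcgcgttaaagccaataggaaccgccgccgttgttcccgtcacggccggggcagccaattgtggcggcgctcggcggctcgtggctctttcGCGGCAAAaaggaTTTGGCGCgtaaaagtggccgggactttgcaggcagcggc
CDC6: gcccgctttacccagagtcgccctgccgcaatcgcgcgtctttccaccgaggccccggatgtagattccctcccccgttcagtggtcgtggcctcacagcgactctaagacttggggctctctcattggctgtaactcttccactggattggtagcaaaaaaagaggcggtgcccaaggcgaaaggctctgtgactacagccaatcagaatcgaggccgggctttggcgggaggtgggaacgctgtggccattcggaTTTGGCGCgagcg
CLSPN: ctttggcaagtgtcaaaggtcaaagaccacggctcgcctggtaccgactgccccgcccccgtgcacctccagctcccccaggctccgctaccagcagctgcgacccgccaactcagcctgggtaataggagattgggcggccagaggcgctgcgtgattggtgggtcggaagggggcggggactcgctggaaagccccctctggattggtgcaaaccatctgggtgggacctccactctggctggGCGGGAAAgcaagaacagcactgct
MCM10: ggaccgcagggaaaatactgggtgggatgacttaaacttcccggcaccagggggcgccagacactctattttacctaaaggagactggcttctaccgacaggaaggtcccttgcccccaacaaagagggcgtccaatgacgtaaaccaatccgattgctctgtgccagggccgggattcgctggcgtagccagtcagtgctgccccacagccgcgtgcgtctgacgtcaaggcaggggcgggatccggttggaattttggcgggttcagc

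Counting the first transcribed base as 1, the words began at -33 and -20 in E2F1, at -5 in CLSPN and at 8 in CDC6. A RefSeq window was found for 30 of the 33 genes, and the 50 bases after the start were searched as well. MCM4, MCM5 and CCNE2 had none. Of the 30 genes, 20 (66.7%) held at least 1 of the 4 words in some window. Counted by gene in the same way, the share was 3.99% of all genes with a window and 6.50% of the 11392 tested genes with a window. Counted by window, it was 3.31% of all 35116 windows of that length in the table. The 33 genes were chosen as replication and E2F system genes, so their high share may follow from that choice. In MCM2 and MCM6 some matches overlapped each other on opposite strands. The box CCAAT, or ATTGG on the other strand, stood in 19 of 30 (63.3%), against 34.6% of all windows and 42.8% of the tested genes. None of the 4 words was found in the windows of ORC1, ORC6, MCM10, CDC45, RFC4, FEN1, RRM1, RRM2, TK1 and CCNE1. Close variants were not searched. The run TTTGGCGG, which differs from TTTGGCGC in its last letter, stands unmarked in the printed CDC6 and MCM10 sequences. A window without a match may therefore hold another E2F-type sequence. A match is a run of letters, not a measured binding site.

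The comparison of MPTN with WT asks how the resistant line differs from its parent. In MPTN, 30 of the 33 genes fell, 0 rose, and E2F1, E2F2 and CCNE1 were not called. A call here is an adjusted p under 0.05 in the quasi-likelihood test of edgeR, adjusted by Benjamini-Hochberg over all 16990 genes tested, of which 18.1% were called lower and 18.3% higher. The median log2 change was -0.71, against 0.02 over all genes tested. In 30 of the 33 every MPTN library was below every WT library, as were 22.6% of all genes tested, and in 0 every MPTN library was above every WT library, as were 24.8% of all genes tested. Relative to the WT mean, the median of the 33 genes was -0.70, -0.71 and -0.71 in the MPTN libraries, -0.33, -0.33 and -0.40 in the MPTN24 libraries, and 0.03, -0.04 and -0.00 in the WT libraries on the log2 scale.

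The comparison of MPTN24 with WT asks what 24 h of the drug had done. In MPTN24, 20 genes fell, 0 rose and 13 were not called, where 12.1% of all genes tested were called lower and 11.1% higher. The median log2 change was -0.34, against 0.00 over all genes. In 26 of the 33 every MPTN24 library lay below every WT library, as did 19.2% of all genes tested, and in 0 every one lay above, as did 18.7%. MPTN was also set against MPTN24 directly: 18 genes were lower in MPTN, 0 were higher and 15 were not called, where 6.70% of all genes tested were called lower and 7.85% higher. The median was -0.37, against 0.01 over all genes, and in 24 genes every MPTN library lay below every MPTN24 library, as in 18.1% of all genes, and in 0 above, as in 19.7%. All 3 comparisons share groups, so their counts are not independent of each other.

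For the rises, 0 genes had an unadjusted edgeR p under 0.05 in any comparison, and DESeq2 and limma also called 0. Without WT 1 the falls numbered 30 in MPTN against WT, 18 in MPTN24 against WT and 20 in MPTN against MPTN24, and without MPTN 3 they numbered 29, 21 and 17 in the same order. The falls in MPTN against MPTN24 numbered 11 without MPTN 2 and 11 without MPTN24 3.

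**Figure D1:**
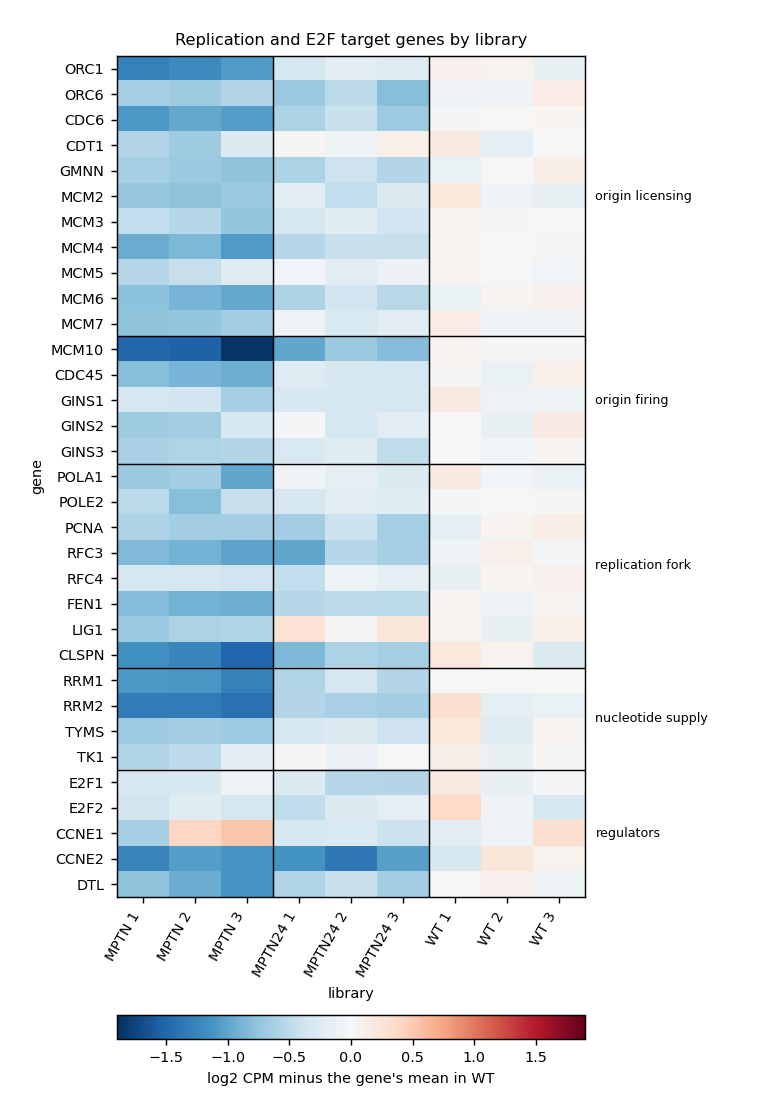
Log2 CPM of each of the 33 genes (rows, by role) in each of the 9 libraries (columns), minus that gene's mean in WT; blue is below the WT mean and red above. The MPTN columns are the darkest blue for most rows, with medians of -0.70 to -0.71, MPTN24 lies between, with -0.33 to -0.40, and CCNE1 is the one gene above the WT mean in MPTN 2 and MPTN 3.

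**Figure D2:**
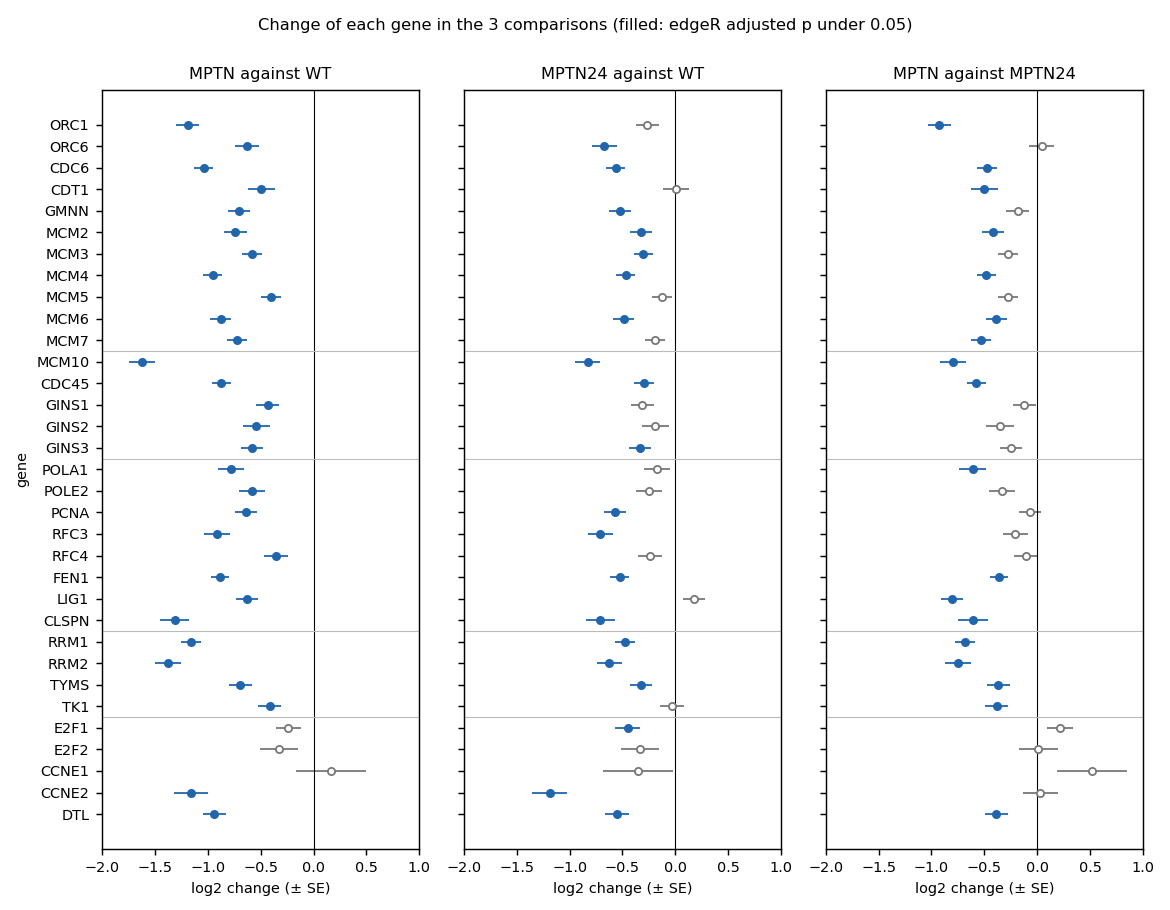
Log2 change (points) with its standard error (bars) for each gene in MPTN against WT, MPTN24 against WT and MPTN against MPTN24; filled points have an edgeR adjusted p under 0.05. Filled points number 30, 20 and 18, and all lie left of 0.

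Among the 11 licensing genes, 11 fell in MPTN against WT, 7 in MPTN24 against WT and 7 in MPTN against MPTN24. The subunits of the origin recognition complex were called in different comparisons. ORC1, the largest ORC subunit (chromosome 1, 52372829 to 52404423 on GRCh38), was at 14.4, 15.1 and 16.5 CPM in MPTN, 27.8, 30.0 and 29.4 CPM in MPTN24 and 37.0, 36.4 and 31.5 CPM in WT. The groups did not overlap, and MPTN stood well below both others. Its log2 change was -1.19 ± 0.11 (SE) in MPTN against WT (edgeR adjusted p = 3.6e-06) and -0.92 ± 0.11 in MPTN against MPTN24 (edgeR adjusted p = 0.00011), while MPTN24 against WT gave -0.27 ± 0.11 and no call (edgeR adjusted p = 0.089). ORC6, the smallest subunit, was at 18.5, 17.9 and 19.4 CPM in MPTN, 17.6, 20.3 and 16.3 CPM in MPTN24 and 27.5, 27.1 and 31.7 CPM in WT. MPTN and MPTN24 overlapped, and both lay below WT. ORC6 changed by -0.63 ± 0.12 in MPTN against WT (edgeR adjusted p = 0.00085) and by -0.67 ± 0.12 in MPTN24 against WT (edgeR adjusted p = 0.0016).

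CDC6, the ATPase that brings the MCM ring to ORC, was at 75.5, 82.2 and 78.2 CPM in MPTN, 107, 121 and 101 CPM in MPTN24 and 158, 161 and 167 CPM in WT. No library overlapped with another group. CDC6 fell by 1.04 ± 0.09 on the log2 scale in MPTN against WT (edgeR adjusted p = 3.1e-06), by 0.56 ± 0.09 in MPTN24 against WT (edgeR adjusted p = 0.0011) and by 0.47 ± 0.09 in MPTN against MPTN24 (edgeR adjusted p = 0.0039). Geminin, encoded by GMNN, blocks re-licensing by binding CDT1, and its RNA was at 28.8, 27.3 and 26.2 CPM in MPTN, 29.3, 33.9 and 30.3 CPM in MPTN24 and 41.0, 44.4 and 48.8 CPM in WT. Both drug-exposed groups lay below all WT libraries. The GMNN change was -0.71 ± 0.11 in MPTN against WT (edgeR adjusted p = 0.00017), -0.52 ± 0.11 in MPTN24 against WT (edgeR adjusted p = 0.0038) and -0.19 ± 0.11, with no call, in MPTN against MPTN24. Its partner CDT1, a loader of the ring, had means of 32.1 ± 4.87 CPM in MPTN, 45.4 ± 2.69 CPM in MPTN24 and 45.2 ± 5.20 CPM in WT (SD, n = 3 each). CDT1 was lower in MPTN against WT (-0.49 ± 0.12, edgeR adjusted p = 0.0067) and against MPTN24 (-0.50 ± 0.12, edgeR adjusted p = 0.016), and gave 0.01 ± 0.12 with no call in MPTN24 against WT. The CDT1 call against MPTN24 was lost without MPTN 1, MPTN 2, MPTN24 1 or MPTN24 3 (edgeR adjusted p 0.0559 to 0.0900).

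The MCM2 to MCM7 ring is the core of the replicative helicase. All of its subunits fell in MPTN against WT, with log2 changes between -0.95 ± 0.09 for MCM4 and -0.40 ± 0.10 for MCM5. MCM2 was at 193, 188 and 194 CPM in MPTN, 273, 230.3 and 263 CPM in MPTN24 and 365, 305 and 289 CPM in WT. MCM3 was at 369, 351 and 308 CPM in MPTN, 410.0, 438 and 398 CPM in MPTN24 and 523, 504 and 508 CPM in WT. MCM4 was at 177, 189 and 162 CPM in MPTN, 233, 252 and 250 CPM in MPTN24 and 347, 339 and 333 CPM in WT. In these subunits the groups were fully separated and in the same order, with MPTN lowest and WT highest. MCM5 was at 109, 117 and 135 CPM in MPTN, 154, 137 and 147 CPM in MPTN24 and 165, 158 and 154 CPM in WT. MCM6 was at 61.5, 57.4 and 53.7 CPM in MPTN, 70.4, 82.0 and 73.5 CPM in MPTN24 and 96.5, 109 and 111 CPM in WT. MCM7 was at 160.0, 163 and 172 CPM in MPTN, 256, 223 and 237 CPM in MPTN24 and 300.3, 261 and 259 CPM in WT. The same order held in the subunits of this second set, and no MPTN24 library overlapped with WT, although for MCM5 the nearest libraries of those groups were close.

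In MPTN against WT the edgeR adjusted p was 0.00011 for MCM2 (-0.74 ± 0.10), 0.00031 for MCM3 (-0.58 ± 0.09), 4.4e-06 for MCM4, 0.0051 for MCM5, 2.0e-05 for MCM6 (-0.88 ± 0.10) and 6.0e-05 for MCM7 (-0.73 ± 0.09). In MPTN24 against WT, MCM4 (-0.47 ± 0.09, edgeR adjusted p = 0.0025), MCM6 (-0.49 ± 0.10, 0.0038), MCM2 (-0.32 ± 0.10, 0.038) and MCM3 (-0.30 ± 0.09, 0.032) were called, and MCM5 (-0.13 ± 0.10, 0.39) and MCM7 (-0.19 ± 0.09, 0.16) were not. MCM7 was called in MPTN against MPTN24 (-0.53 ± 0.09, edgeR adjusted p = 0.0021), as were MCM4 (-0.48 ± 0.09, 0.0028), MCM2 (-0.41 ± 0.10, 0.017) and MCM6 (-0.39 ± 0.10, 0.018), and MCM3 and MCM5 both gave -0.28 with no call. DESeq2 did call both lower against MPTN24 (adjusted p 0.0163 for MCM3 and 0.0340 for MCM5), as did edgeR without WT 1 (0.0338 and 0.0432), for MCM3 with only those 2 groups (0.0440) and for MCM5 without MPTN 3 (0.0232). The MCM2 call in MPTN24 was lost without any one library other than MPTN 3 or WT 3 (edgeR adjusted p 0.0515 to 0.198), and that of MCM3 without MPTN 2, any MPTN24 library, WT 2 or WT 3 (0.0550 to 0.133). Against MPTN24, MCM2 lost its call without MPTN 1, MPTN 2, MPTN24 1 or MPTN24 3 (0.0518 to 0.0819), and MCM6 without MPTN 2, MPTN 3, MPTN24 2 or MPTN24 3 (0.0578 to 0.0699). MCM6 was also not called there by limma (0.0817 and 0.0833).

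Levels of different subunits can be set side by side only per transcript length, in the deposited FPKM. The 6 subunits together summed to 324, 319 and 291 FPKM in MPTN, 386, 391 and 391 FPKM in MPTN24 and 471, 450 and 466 FPKM in WT. The groups did not overlap in this sum. MCM3 took the largest share of it in each library, 32.0% to 36.7% in MPTN, 31.0% to 34.5% in MPTN24 and 30.6% to 32.6% in WT. MCM6 took the smallest, 4.46% to 4.90% in MPTN, 4.30% to 5.14% in MPTN24 and 4.59% to 5.80% in WT. The share of MCM4 was 12.5% to 14.1% in MPTN, 13.3% to 14.7% in MPTN24 and 15.4% to 16.2% in WT, so that both drug-exposed groups lay below WT. For MCM5 the share was 9.33% to 12.1% in MPTN, 9.26% to 10.2% in MPTN24 and 8.47% to 8.80% in WT, with WT lowest. Shares of a FPKM sum carry each gene's length model and say nothing of protein.

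**Figure D3:**
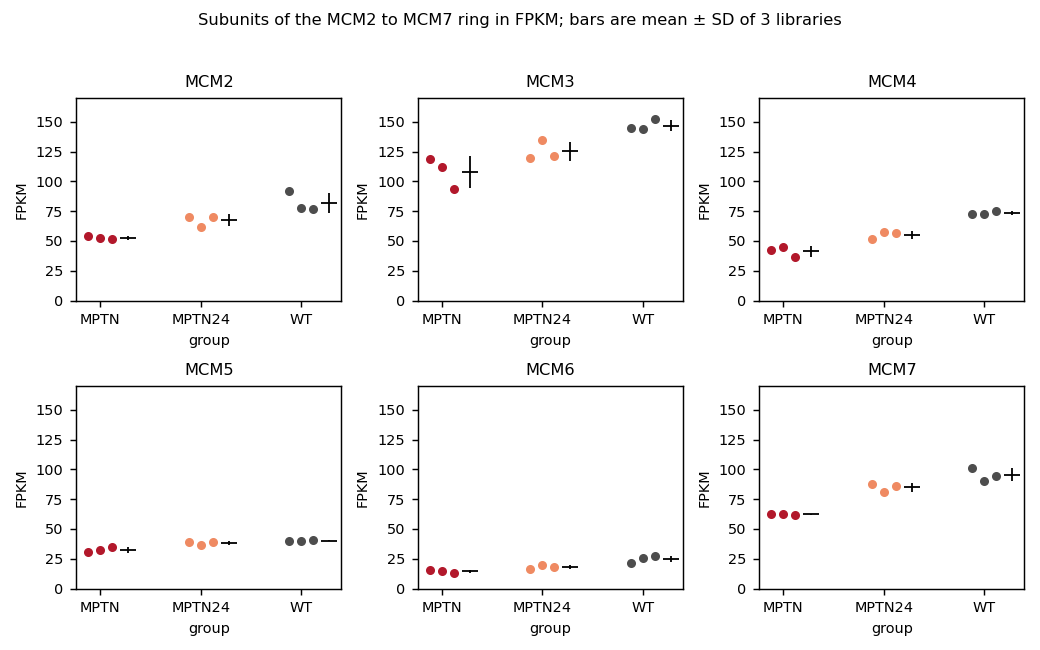
FPKM of MCM2 to MCM7 in each library (dots) with the mean and SD of 3 libraries (bars), in MPTN, MPTN24 and WT, on a shared axis from 0. MCM3 is highest throughout, MCM6 lowest, and MPTN lies below WT in every panel.

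Of the 5 firing factors, 5 fell in MPTN against WT, 3 in MPTN24 against WT and 2 in MPTN against MPTN24. MCM10 and CDC45 fell in all 3 comparisons. MCM10, which activates the loaded helicase (chromosome 10, 13161554 to 13211104), had the largest change of the 33 genes in MPTN against WT. It was at 17.1, 16.6 and 13.2 CPM in MPTN, 24.4, 29.7 and 27.2 CPM in MPTN24 and 50.7, 46.9 and 47.1 CPM in WT. The groups stood far apart. MCM10 fell by 1.63 ± 0.12 on the log2 scale in MPTN against WT, that is 3.09-fold lower (edgeR adjusted p = 8.1e-07), by 0.83 ± 0.12 in MPTN24 against WT (edgeR adjusted p = 0.00056) and by 0.80 ± 0.12 in MPTN against MPTN24 (edgeR adjusted p = 0.00080).

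CDC45, a subunit of the active helicase, was at 42.7, 40.4 and 39.3 CPM in MPTN, 62.6, 60.5 and 59.2 CPM in MPTN24 and 76.0, 68.5 and 79.5 CPM in WT. There was no overlap between groups. Its log2 change was -0.87 ± 0.09 in MPTN against WT (edgeR adjusted p = 1.2e-05), -0.57 ± 0.09 in MPTN against MPTN24 (edgeR adjusted p = 0.0012) and -0.30 ± 0.09 in MPTN24 against WT (edgeR adjusted p = 0.033). That last call was lost without MPTN 2, any MPTN24 library or WT 3 (edgeR adjusted p 0.0571 to 0.121).

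GINS is the partner of CDC45 in the helicase, and 3 of its genes are among the 33. GINS3 was at 18.6, 19.1 and 19.5 CPM in MPTN, 23.3, 24.4 and 20.4 CPM in MPTN24 and 28.5, 27.7 and 29.5 CPM in WT, with no overlap. It fell in MPTN against WT (-0.58 ± 0.11, edgeR adjusted p = 0.00073) and in MPTN24 against WT (-0.33 ± 0.10, edgeR adjusted p = 0.036), and the second call was lost without any one library other than MPTN 3 or WT 1 (0.0520 to 0.164). GINS2 was at 27.0, 27.1 and 34.8 CPM in MPTN, 42.0, 34.1 and 37.4 CPM in MPTN24 and 42.8, 38.9 and 47.8 CPM in WT. MPTN 3 was the highest of the MPTN libraries and overlapped with MPTN24. GINS2 was called in MPTN against WT alone (-0.54 ± 0.13, edgeR adjusted p = 0.0046). It was called against MPTN24 without MPTN 3 (0.0274). GINS1 was at 43.6 ± 4.86 CPM in MPTN, 47.4 ± 0.300 CPM in MPTN24 and 58.9 ± 6.46 CPM in WT (SD, n = 3 each), with a call in MPTN against WT (-0.43 ± 0.11, edgeR adjusted p = 0.0069). In MPTN24 against WT it gave -0.31 ± 0.11 and an edgeR adjusted p of 0.055, which was 0.0303 without MPTN 3 and 0.0294 in DESeq2.

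At the replication fork, 8 of 8 genes fell in MPTN against WT, 4 in MPTN24 against WT and 4 in MPTN against MPTN24. CLSPN and FEN1 fell in all 3 comparisons. CLSPN encodes claspin, which links fork and checkpoint (chromosome 1, 35720218 to 35769978), and was at 17.8, 17.1 and 14.1 CPM in MPTN, 22.3, 26.6 and 25.7 CPM in MPTN24 and 46.4, 42.3 and 33.1 CPM in WT. The groups did not overlap, with WT 3 nearest to MPTN24. The CLSPN change was -1.31 ± 0.14 in MPTN against WT (edgeR adjusted p = 1.3e-05), -0.71 ± 0.14 in MPTN24 against WT (edgeR adjusted p = 0.0032) and -0.61 ± 0.14 in MPTN against MPTN24 (edgeR adjusted p = 0.011), the last not called by limma (0.0707 and 0.0757). FEN1, the flap endonuclease that trims Okazaki fragments, was at 52.8, 50.2 and 49.2 CPM in MPTN, 64.1, 65.7 and 65.4 CPM in MPTN24 and 96.4, 88.1 and 96.9 CPM in WT. Libraries of a group lay close together and groups did not overlap. FEN1 fell by 0.89 ± 0.09 on the log2 scale in MPTN against WT (edgeR adjusted p = 6.2e-06), by 0.53 ± 0.09 in MPTN24 against WT (edgeR adjusted p = 0.0011) and by 0.36 ± 0.09 in MPTN against MPTN24 (edgeR adjusted p = 0.014). That smallest change lost its call without MPTN 2 or MPTN24 3 (0.0635 to 0.0649) and with limma (0.0553 and 0.0557).

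The clamp PCNA and its loader subunit RFC3 were below WT in both drug-exposed groups. PCNA, the sliding clamp of the polymerases, was at 230.4, 220.2 and 221 CPM in MPTN, 219, 261 and 223 CPM in MPTN24 and 308, 358 and 379 CPM in WT. RFC3 was at 26.2, 25.3 and 23.4 CPM in MPTN, 23.8, 32.2 and 30.3 CPM in MPTN24 and 44.4, 50.3 and 46.4 CPM in WT. For both genes MPTN and MPTN24 overlapped and lay below WT. PCNA changed by -0.64 ± 0.10 in MPTN against WT (edgeR adjusted p = 0.00030) and by -0.57 ± 0.10 in MPTN24 against WT (edgeR adjusted p = 0.0019), and RFC3 by -0.91 ± 0.12 (6.7e-05) and -0.71 ± 0.12 (0.0014) in the same comparisons. MPTN against MPTN24 gave -0.07 ± 0.10 for PCNA and -0.21 ± 0.12 for RFC3, with no call. RFC4, another loader subunit, averaged 35.8 ± 0.552 CPM in MPTN, 38.6 ± 5.17 CPM in MPTN24 and 45.6 ± 3.75 CPM in WT (SD, n = 3 each). Its call in MPTN against WT (-0.35 ± 0.11, edgeR adjusted p = 0.026) was lost without any one MPTN library, WT 2 or WT 3 (0.0571 to 0.0868), with upper-quartile scaling (0.0584) and with limma (up to 0.211).

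LIG1 and POLA1 were called lower in MPTN against both other groups, with no call in MPTN24 against WT. LIG1, the ligase that seals Okazaki fragments, was at 34.4, 37.0 and 37.5 CPM in MPTN, 68.0, 56.7 and 65.8 CPM in MPTN24 and 57.7, 50.8 and 59.7 CPM in WT. MPTN lay below both others, and MPTN24 and WT overlapped. Its change was -0.63 ± 0.10 in MPTN against WT (edgeR adjusted p = 0.00039) and -0.81 ± 0.10 in MPTN against MPTN24 (edgeR adjusted p = 0.00024), and 0.18 ± 0.10 with no call in MPTN24 against WT (edgeR adjusted p = 0.24). POLA1, the catalytic subunit of the polymerase that primes each fragment, was at 16.8, 17.4 and 13.9 CPM in MPTN, 26.1, 24.4 and 22.9 CPM in MPTN24 and 30.9, 26.5 and 25.2 CPM in WT. Again MPTN lay below both others, which overlapped. The POLA1 change was -0.78 ± 0.12 in MPTN against WT (edgeR adjusted p = 0.00027), -0.61 ± 0.12 in MPTN against MPTN24 (edgeR adjusted p = 0.0050) and -0.17 ± 0.12 with no call in MPTN24 against WT. POLE2, a subunit of the leading strand polymerase, was at 10.7, 8.79 and 11.3 CPM in MPTN, 12.3, 13.4 and 13.1 CPM in MPTN24 and 15.2, 15.3 and 15.6 CPM in WT. All groups were separated, but POLE2 was called in MPTN against WT alone (-0.58 ± 0.12, edgeR adjusted p = 0.0022).

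The 4 nucleotide supply genes gave the largest median of the roles in MPTN against WT, -0.92 on the log2 scale, against -0.73 for licensing, -0.58 for firing, -0.71 for fork genes and -0.32 for the regulators. That rank rests on RRM1 and RRM2, as TYMS (-0.69) and TK1 (-0.41) changed less. It did not hold in the further lists. There, 15 other nucleotide supply genes had a median of -0.34, against -0.77 for other licensing and firing genes and -0.50 for other fork genes. All 4 fell in MPTN against WT and in MPTN against MPTN24, and 3 in MPTN24 against WT. RRM1 and RRM2 are the subunits of ribonucleotide reductase, which makes deoxyribonucleotides. RRM2 (chromosome 2, 10120698 to 10211725) was at 111, 111 and 104 CPM in MPTN, 189, 182 and 175 CPM in MPTN24 and 344, 246 and 253 CPM in WT. RRM1 (chromosome 11, 4094707 to 4138932) was at 141, 138 and 123 CPM in MPTN, 202, 239 and 205 CPM in MPTN24 and 298, 302 and 299 CPM in WT. For both subunits the groups were separated and in the same order, and for RRM2 the spread within WT came from WT 1. The RRM2 change was -1.38 ± 0.12 in MPTN against WT (edgeR adjusted p = 2.6e-06), -0.63 ± 0.12 in MPTN24 against WT (edgeR adjusted p = 0.0026) and -0.75 ± 0.12 in MPTN against MPTN24 (edgeR adjusted p = 0.0010). For RRM1 it was -1.16 ± 0.10 (edgeR adjusted p = 1.7e-06), -0.48 ± 0.10 (0.0035) and -0.68 ± 0.10 (0.00042) in the same comparisons.

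TYMS, thymidylate synthase, was at 70.8, 72.8 and 71.0 CPM in MPTN, 93.0, 96.1 and 87.6 CPM in MPTN24 and 131, 96.7 and 119 CPM in WT. WT 2 lay just above the highest MPTN24 library. TYMS fell by 0.69 ± 0.11 on the log2 scale in MPTN against WT (edgeR adjusted p = 0.00023). Its calls in MPTN24 against WT (-0.32 ± 0.11, edgeR adjusted p = 0.042) and in MPTN against MPTN24 (-0.37 ± 0.11, edgeR adjusted p = 0.035) depended on the libraries kept and on the settings. The first was lost without any one library other than MPTN 3 or WT 2 (0.0577 to 0.157), and the second without any one MPTN or MPTN24 library (0.0767 to 0.108). Upper-quartile scaling, a fit of only the 2 groups and limma also lost the first (adjusted p 0.0702 to 0.102). No filter and limma also lost the second (adjusted p 0.0529 to 0.0999). TK1, the salvage kinase for thymidine, averaged 250.3 ± 35.7 CPM in MPTN, 326 ± 15.9 CPM in MPTN24 and 334 ± 29.1 CPM in WT (SD, n = 3 each). It was lower in MPTN against WT (-0.41 ± 0.11, edgeR adjusted p = 0.0093) and against MPTN24 (-0.38 ± 0.11, edgeR adjusted p = 0.033), and gave -0.03 ± 0.11 with no call in MPTN24 against WT. Without MPTN 2 the call against WT was lost (0.0510), and that against MPTN24 was lost without MPTN 1, MPTN 2 or any MPTN24 library (0.0527 to 0.140).

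Of the 5 regulators, 2 fell in MPTN against WT, 3 in MPTN24 against WT and 1 in MPTN against MPTN24. Neither E2F gene was called in MPTN against WT. E2F1 encodes an activator of the programme and was at 35.0, 34.7 and 40.5 CPM in MPTN, 36.1, 29.6 and 29.3 CPM in MPTN24 and 48.4, 39.1 and 42.3 CPM in WT. MPTN overlapped with both other groups, and MPTN24 lay below WT. E2F1 was called in MPTN24 against WT (-0.45 ± 0.12, edgeR adjusted p = 0.016), with the call lost without MPTN24 2 (0.0808) or MPTN24 3 (0.0817), and gave -0.24 ± 0.12 in MPTN against WT (0.14) and 0.21 ± 0.12 in MPTN against MPTN24 (0.27). E2F2, a related activator, was at 5.67 ± 0.238 CPM in MPTN, 5.63 ± 0.564 CPM in MPTN24 and 7.11 ± 1.74 CPM in WT (SD, n = 3 each), with no call in any comparison. The difference between the change of an E2F gene and that of its targets was not tested.

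CCNE2 and CCNE1 encode the E cyclins that start S phase with CDK2. CCNE2 was at 5.57, 6.48 and 6.15 CPM in MPTN, 6.06, 5.21 and 6.55 CPM in MPTN24 and 10.8, 15.7 and 14.1 CPM in WT. MPTN and MPTN24 overlapped fully and lay well below WT. The CCNE2 change was -1.16 ± 0.16 in MPTN against WT (edgeR adjusted p = 0.00011) and -1.19 ± 0.16 in MPTN24 against WT (edgeR adjusted p = 0.00042), the largest of the 33 genes at 24 h, and 0.03 ± 0.16 with no call in MPTN against MPTN24. CCNE1 averaged 1.53 ± 0.586 CPM in MPTN, 1.07 ± 0.0473 CPM in MPTN24 and 1.36 ± 0.271 CPM in WT (SD, n = 3 each), the lowest level of the set, and was not called. DTL encodes the receptor of the ligase that destroys CDT1 in S phase. It was at 39.5, 35.0 and 31.1 CPM in MPTN, 45.5, 50.1 and 42.5 CPM in MPTN24 and 66.9, 71.5 and 64.0 CPM in WT. The groups did not overlap. DTL changed by -0.94 ± 0.11 in MPTN against WT (edgeR adjusted p = 2.6e-05), by -0.55 ± 0.11 in MPTN24 against WT (edgeR adjusted p = 0.0035) and by -0.39 ± 0.11 in MPTN against MPTN24 (edgeR adjusted p = 0.031). The smallest of these lost its call without MPTN 2, MPTN 3 or any MPTN24 library (0.0535 to 0.103) and with limma (0.10 and 0.101).

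**Figure D4:**
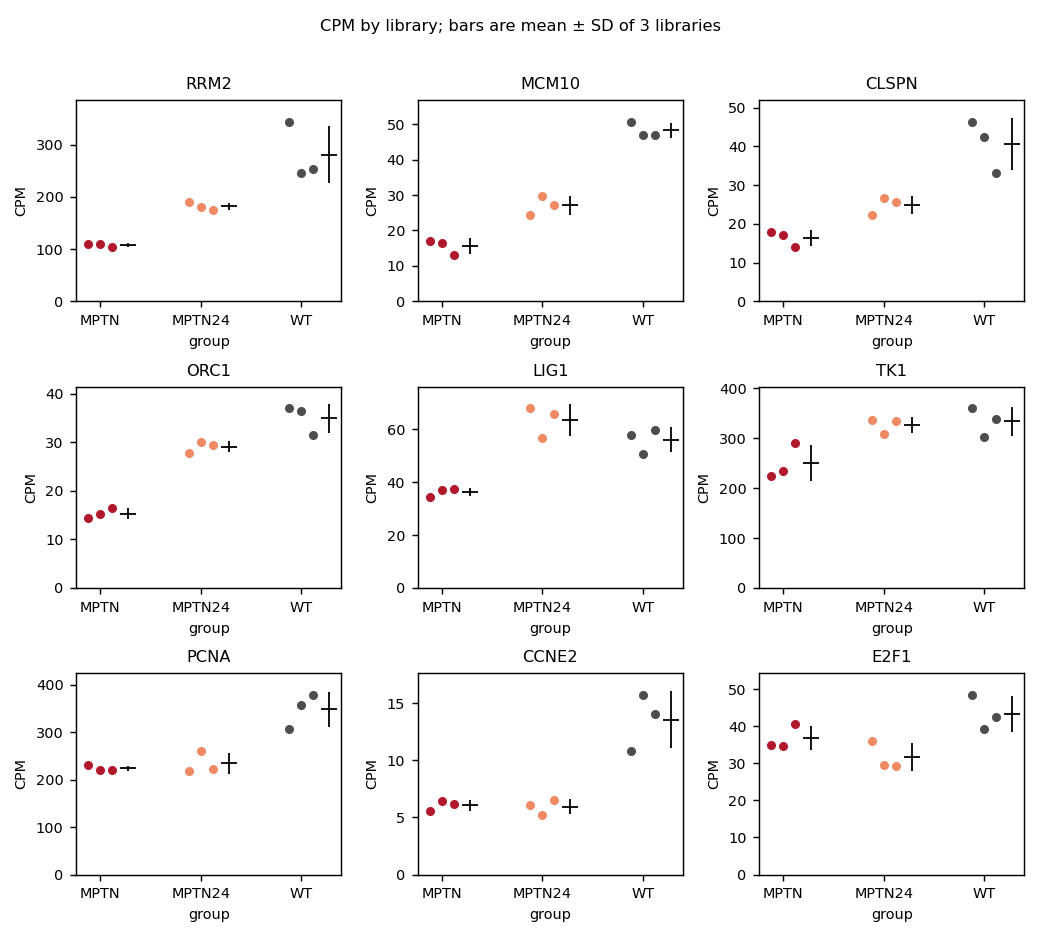
CPM of 9 genes in each library (dots), with the mean and SD of 3 libraries (bars), in MPTN, MPTN24 and WT; each axis starts at 0. RRM2, MCM10 and CLSPN fall in steps, ORC1, LIG1 and TK1 are low in MPTN, and PCNA and CCNE2 are low in both MPTN and MPTN24. For E2F1 all MPTN24 libraries, at 29.3 to 36.1 CPM, lie below WT. So do MPTN 1 and MPTN 2, at 35.0 and 34.7 CPM, but not MPTN 3, at 40.5 CPM.

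Set side by side, the calls fell into few patterns. In 12 genes (CDC6, MCM2, MCM4, MCM6, MCM10, CDC45, FEN1, CLSPN, RRM1, RRM2, TYMS and DTL) all 3 comparisons were called lower. In 6 genes (ORC1, CDT1, MCM7, POLA1, LIG1 and TK1) MPTN was called lower than both others, with no call in MPTN24 against WT. In 7 genes (ORC6, GMNN, MCM3, GINS3, PCNA, RFC3 and CCNE2) both MPTN and MPTN24 were called lower than WT, with no call between them by edgeR. MCM5, GINS1, GINS2, POLE2 and RFC4 were called in MPTN against WT alone, and E2F1 in MPTN24 against WT alone. A missing call does not show that a gene was the same in both groups.

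By FPKM, the genes spanned a wide range of levels in every group. PCNA averaged 165 ± 9.02 FPKM in MPTN, 166 ± 19.1 FPKM in MPTN24 and 238 ± 34.4 FPKM in WT, and TK1 163 ± 18.0 FPKM in MPTN, 205 ± 8.06 FPKM in MPTN24 and 202 ± 17.3 FPKM in WT (SD, n = 3 each). These were the highest of the 33 genes, and the order of their means was reversed in MPTN24. Single libraries of the other groups had that reversed order too. TK1 was above PCNA in MPTN 3 (184 against 156 FPKM) and in WT 1 (209 against 202 FPKM). MCM3 came next, at 108 ± 13.4 FPKM in MPTN, 125 ± 8.12 FPKM in MPTN24 and 147 ± 4.59 FPKM in WT. E2F2 and CCNE1 were lowest in each group, CCNE1 at 0.838 ± 0.288 FPKM in MPTN, 0.527 ± 0.0228 FPKM in MPTN24 and 0.654 ± 0.134 FPKM in WT. RRM1 ranked 8 in MPTN, 6 in MPTN24 and 5 in WT among the 33, and RRM2 10, 9 and 7 in the same groups. LIG1 ranked 23 in MPTN, 17 in MPTN24 and 22 in WT.

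The kit was taken to be unstranded, and the strandedness of the reads was not tested. Reads of a gene could then not be separated from those of a gene that overlaps it on the other strand. Of the 33 genes, 9 share bases with a partner at a mean of at least 0.1 CPM, and for MCM2, GINS3 and POLA1 that partner was at no more than 0.521 CPM. TYMS shares 3261 bases with ENOSF1, which was not called in any comparison (-0.15 ± 0.09 in MPTN against WT, 0.12 ± 0.09 in MPTN24 against WT). The largest ENOSF1 change was -0.28 ± 0.09 in MPTN against MPTN24 (edgeR adjusted p = 0.066). CCNE2 shares 1977 bases with INTS8 and 912 with NDUFAF6, both expressed at a higher mean CPM (42.6 and 13.3, against 8.49 for CCNE2). INTS8 was lower in MPTN against WT (-0.54 ± 0.10, edgeR adjusted p = 0.0011) and gave -0.04 ± 0.10 in MPTN24 against WT, and NDUFAF6 was lower in both (-0.81 ± 0.14 and -0.42 ± 0.14, edgeR adjusted p = 0.00049 and 0.043). The part of these partners in the CCNE2 values was not tested. MCM7 shares 392 bases with AP4M1, which had a mean of 7.97 CPM against 225 CPM for MCM7 and was not called. GINS2 shares 7 bases with GSE1, which was not called. RFC4 shares 18 bases with EIF4A2 (261 CPM against 40.0), which was higher in MPTN against WT (0.37 ± 0.10, edgeR adjusted p = 0.0089). DTL shares 5 bases with INTS7, lower in MPTN (-0.32 ± 0.09) and MPTN24 (-0.33 ± 0.09) against WT (edgeR adjusted p = 0.015 and 0.022). The part of these partners was not tested either.

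The counts in 6 lists of other genes of these pathways are to be read against all genes tested, of which 18.1% were called lower and 18.3% higher in MPTN against WT, 12.1% and 11.1% in MPTN24 against WT, and 6.70% and 7.85% in MPTN against MPTN24, with medians of 0.02, 0.00 and 0.01. Among 15 other licensing and firing genes, 9 fell and 0 rose in MPTN against WT, 9 fell and 0 rose in MPTN24 against WT, and 5 fell and 0 rose in MPTN against MPTN24. The medians of their log2 changes in these comparisons were -0.77, -0.43 and -0.33. TICRR, the treslin that recruits CDC45 (-1.50 ± 0.14 and -0.76 ± 0.14 in MPTN and in MPTN24 against WT), its partner MTBP (-1.21 ± 0.13 in MPTN against WT) and the scaffold TOPBP1 (-0.93 ± 0.11 and -0.59 ± 0.11) led the falls. The others named by rank were DBF4, the activator of the CDC7 kinase (-0.49 ± 0.11 in MPTN24 against WT), whose call was lost without MPTN24 3 (edgeR adjusted p 0.0516), and, in MPTN against MPTN24, MTBP (-0.77 ± 0.13), TICRR (-0.74 ± 0.14) and the MCM-binding protein MCMBP (-0.38 ± 0.10). MCMBP was not called without MPTN 1, MPTN 3, MPTN24 1 or MPTN24 2 (0.0584 to 0.0942 with limma included). The falls in this list at 24 h numbered 4 without MPTN24 1 and 5 without MPTN24 3, and those in MPTN against MPTN24 numbered 3 without MPTN 2 and 2 without MPTN 1, MPTN 3, MPTN24 1 or MPTN24 2.

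Of 24 other fork genes, 18 fell and 1 rose in MPTN against WT, 8 fell and 1 rose in MPTN24 against WT, and 11 fell and 0 rose in MPTN against MPTN24. Their median log2 changes were -0.50, -0.13 and -0.30. ATAD5, which unloads PCNA, fell in MPTN (-1.55 ± 0.15) and MPTN24 (-0.79 ± 0.14) against WT and in MPTN against MPTN24 (-0.76 ± 0.15), the last not called by limma (0.0623 and 0.0883). DNA2, a flap nuclease (-1.09 ± 0.13), and DSCC1, of an alternative clamp loader (-0.92 ± 0.12), were next in MPTN against WT. TIPIN, a fork protection factor, fell in MPTN24 against WT (-0.83 ± 0.13), and its partner TIMELESS (-0.66 ± 0.10) and the loader subunit CHTF18 (-0.72 ± 0.12) were lower in MPTN against MPTN24. POLD4, a small subunit of polymerase delta, was at 108, 119 and 142 CPM in MPTN, 125, 114 and 119 CPM in MPTN24 and 56.0, 66.7 and 84.8 CPM in WT. WT lay below both drug-exposed groups. POLD4 rose in MPTN (0.83 ± 0.14, edgeR adjusted p = 0.00039) and in MPTN24 (0.78 ± 0.14, edgeR adjusted p = 0.0018) against WT. The falls of this list at 24 h numbered 4 without MPTN24 1 or WT 2 and 5 without MPTN24 2, and against MPTN24 they numbered 7 without MPTN 1 or MPTN 2 and 6 without MPTN24 3.

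Of 15 other nucleotide supply genes, 8 fell and 1 rose in MPTN against WT, 7 fell and 1 rose in MPTN24 against WT, and 6 fell and 0 rose in MPTN against MPTN24, with median log2 changes of -0.34, -0.24 and -0.12. MTHFD1, of folate metabolism (-0.98 ± 0.09 against WT and -0.75 ± 0.09 against MPTN24), NME1, a nucleoside diphosphate kinase (-0.80 ± 0.11 against WT), and CAD, which starts pyrimidine synthesis (-0.75 ± 0.13 against MPTN24), were lower in MPTN. In MPTN24 against WT, UMPS, which makes UMP (-0.55 ± 0.10), and DCTPP1, a dCTP pyrophosphatase (-0.47 ± 0.10), fell. TK2, the mitochondrial thymidine kinase, was at 11.1, 10.5 and 10.1 CPM in MPTN, 11.4, 9.72 and 8.34 CPM in MPTN24 and 5.54, 5.18 and 4.52 CPM in WT. In MPTN against WT this was opposite in direction to TK1, which was not called in MPTN24 against WT. TK2 rose in MPTN (1.06 ± 0.15, edgeR adjusted p = 0.00013) and in MPTN24 (0.95 ± 0.15, edgeR adjusted p = 0.00095) against WT. The falls of this list at 24 h numbered 4 without MPTN24 1 or MPTN24 2 and 3 without MPTN24 3, and those against MPTN24 numbered 3 without MPTN 1 or MPTN24 1.

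Among 19 other E2F targets in chromatin assembly and checkpoint control, 19 fell in MPTN against WT, 14 in MPTN24 against WT and 11 in MPTN against MPTN24, and 0 rose in each by edgeR. The median log2 changes were -0.74, -0.46 and -0.36. CDC25A, the phosphatase that activates CDK2, was at 20.8, 21.4 and 18.4 CPM in MPTN, 30.8, 27.0 and 28.1 CPM in MPTN24 and 55.3, 47.0 and 47.8 CPM in WT. The groups were separated. CDC25A changed by -1.31 ± 0.11 in MPTN against WT (edgeR adjusted p = 2.0e-06) and by -0.80 ± 0.11 in MPTN24 against WT (edgeR adjusted p = 0.00041). ATAD2, a bromodomain ATPase (-1.16 ± 0.10), and EXO1, a repair exonuclease (-1.03 ± 0.10), were the others named by rank in MPTN against WT, and USP1, a deubiquitinase that acts on PCNA (-0.83 ± 0.12), and HELLS, a chromatin remodeller (-0.71 ± 0.11), in MPTN24 against WT. EXO1 (-0.57 ± 0.10), ATAD2 (-0.53 ± 0.10) and the histone chaperone NASP (-0.62 ± 0.12) led in MPTN against MPTN24.

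Of 15 genes for the other E2F factors, their DP partners, the pocket proteins and the DREAM complex, 7 fell and 1 rose in MPTN against WT, 7 fell and 0 rose in MPTN24 against WT, and 2 fell and 0 rose in MPTN against MPTN24. The median log2 changes were -0.18, -0.28 and -0.00075. The riser, LIN37 of DREAM (0.49 ± 0.15, edgeR adjusted p = 0.020), was not called without MPTN 2, MPTN 3 or WT 2. RBL1, which encodes the pocket protein p107 (-1.07 ± 0.15), E2F8, a repressor (-1.54 ± 0.23), and TFDP1, the DP1 partner (-0.55 ± 0.09), led in MPTN against WT. In MPTN24 against WT, TFDP1 (-0.35 ± 0.09) and LIN54 (-0.72 ± 0.19) and LIN9 (-0.62 ± 0.17) of DREAM led, and the falls in this list numbered 0 without MPTN24 1 and 2 without MPTN24 3 or WT 2. E2F8 (-0.89 ± 0.22) and RBL1 (-0.59 ± 0.15) were the genes called in MPTN against MPTN24, where the falls numbered 1 without MPTN 1 or MPTN 2 and 0 without MPTN 3, MPTN24 2 or MPTN24 3.

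Of 9 ubiquitin ligase genes that act on replication factors, 5 fell in MPTN against WT, 1 in MPTN24 against WT and 3 in MPTN against MPTN24, and 0 rose in each by edgeR. The fall of 1 gene of 9 in MPTN24 against WT is near the share of all genes called lower there, 12.1%. The median log2 changes were -0.28, -0.19 and -0.15. SKP2, the receptor that marks CDT1 and p27 for destruction, fell in MPTN against WT (-0.75 ± 0.09), in MPTN24 against WT (-0.38 ± 0.09, not called by limma, 0.122 and 0.123) and in MPTN against MPTN24 (-0.38 ± 0.09). CCNF, cyclin F, which targets CDC6 among others, was lower in MPTN than in WT (-1.03 ± 0.15) and in MPTN24 (-0.86 ± 0.15), as was DDB1, the adaptor that DTL binds (-0.40 ± 0.11 and -0.44 ± 0.11). The DDB1 call against MPTN24 was lost without MPTN 1, MPTN24 1 or MPTN24 3 (edgeR adjusted p 0.0535 to 0.0696). The falls of this list in MPTN24 against WT numbered 2 without MPTN 3 and with DESeq2.

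The lists given with 0 rises against WT also had 0 genes higher at an unadjusted edgeR p under 0.05, by DESeq2 and by limma. In MPTN against MPTN24, LIN37, E2F5, LIN52, SAMHD1, ORC4 and RBX1 were higher at an unadjusted edgeR p under 0.05, DESeq2 called 0 rises in every list, and limma called up to 2 in the E2F and DREAM list and 1 among the ubiquitin ligase genes. Leaving out 1 library gave 1 rise among the licensing and ubiquitin ligase genes in MPTN24 against WT (without WT 1) and a second among the nucleotide genes (without WT 3). In MPTN against MPTN24 it gave 1 rise in the E2F and DREAM list (without MPTN 1 or WT 1), 1 among the licensing genes (without WT 1) and 1 among the nucleotide genes (without MPTN 3).

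MKI67, the proliferation antigen Ki-67, moved with the replication genes. It was at 9.50, 8.14 and 5.5 FPKM in MPTN, 13.0, 15.8 and 16.0 FPKM in MPTN24 and 25.6, 22.2 and 16.5 FPKM in WT. The groups did not overlap, although WT 3 was close to MPTN24. MKI67 changed by -1.60 ± 0.20 in MPTN against WT (edgeR adjusted p = 0.00014), by -1.02 ± 0.20 in MPTN against MPTN24 (edgeR adjusted p = 0.0068) and by -0.59 ± 0.20, with no call, in MPTN24 against WT (edgeR adjusted p = 0.055). That last difference was called without MPTN 1 (0.0432), MPTN 3 (0.0232) or WT 3 (0.00856) and by DESeq2 (0.00734). The part of the share of cycling cells in the changes of the replication genes was not tested.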

How the data were processed

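RNA of HSC-3 was extracted with Trizol and made into libraries with a TruSeq RNA kit, per the labels' protocols. The submitters' processing notes name CASAVA 1.8, Trimmomatic, FastQC, HISAT2, StringTie and edgeR with GRCh38; their order, settings and annotation release were not given in the sources used here. The authors deposited a table of whole-number estimated counts for 60612 genes, in which 1 read pair often appears as 4 counts, and a second table of the same genes. The values the authors deposited there carry no stated unit in the sources used here and were taken to be FPKM: in 86.8% of values of the genes with more than 1000 counts in every library, the ratio of count to FPKM lay within 5% of a library constant after adjustment for the gene. No column of values was left out (0).

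Genes passing filterByExpr (minimum count 10, total 15) numbered 16990. Counts as deposited were TMM-scaled. The 9 libraries entered a single quasi-likelihood fit with robust dispersions, made with edgeR 4.0.16 in R 4.3.3, and p-values were adjusted by Benjamini-Hochberg over all genes tested, with a threshold of 0.05. Log values used a prior count of 2. FPKM were used for levels between genes, for markers and in limma.

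Same-numbered libraries of different groups correlated at no more than 0.07 in their deviations from group means, so the numbers do not pair the libraries and the model has no replicate block.

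The 33 genes, the 6 further pathway lists (97 genes, all matched) and the tests were chosen with earlier results of these data known. Values in every library are given for genes called with a log2 change of at least 0.5 in size in some comparison and for the MCM ring; of each further list, the 3 called genes with the smallest adjusted p in each comparison are named. A gene that this rule names among the nucleotide supply genes is not reported here. LIN37, POLD4 in MPTN, TK2 in MPTN and the genes named for an unadjusted p or an overlap on the other strand were added after their values were seen. Alternatives were RLE and upper-quartile scaling, no filter, 1 CPM in 3 libraries, a replicate block, counts divided by 4, only the 2 groups compared, each library left out, DESeq2 1.42.0, and limma 3.58.1 on FPKM in log2 units, with a pseudocount of 0.1 or 1 (13407 genes at 0.5 FPKM or more in 3 libraries).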

Additional observations from a re-analysis of the deposited data

How the results depend on the processing

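Of the calls, 28 of 30 in MPTN against WT, 14 of 20 in MPTN24 against WT and 10 of 18 in MPTN against MPTN24 held in all 19 alternatives, and 0 called values changed sign. The genes called higher numbered 0 in each. The falls ranged from 28 to 30, from 14 to 21 and from 11 to 20 in those comparisons. At 24 h, upper-quartile scaling left 15 falls, without a call for MCM2, MCM3, CDC45, GINS3 and TYMS. Limma left 15 and 16, without a call for the same genes, except that GINS3 kept its call on FPKM plus 1. The cause was not tested. Upper-quartile scaling also raised the share of rises among all genes called from 47.9% to 59.3% in MPTN24 against WT.

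The median log2 change of the 33 genes in MPTN against WT was -0.64 with upper-quartile scaling, -0.60 and -0.56 with limma on FPKM plus 0.1 and plus 1, and -0.76 to -0.66 with a library left out. In MPTN24 against WT it was -0.28 with each of these settings (upper-quartile -0.28, limma -0.28 and -0.28) and -0.41 to -0.33 with a library left out, and in MPTN against MPTN24 -0.30 with limma on FPKM plus 1 and -0.37 to -0.35 with a library left out. The cause was not tested.

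With the replicate number as a block, a pairing the data do not bear out, the falls numbered 30, 21 and 18 in MPTN against WT, MPTN24 against WT and MPTN against MPTN24, and the added call was GINS1 at 24 h (edgeR adjusted p 0.0492).

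Values that changed sign all belonged to genes without a call. In MPTN24 against WT, the log2 change of TK1 was 0.0249 with upper-quartile scaling, 0.0236 and 0.0234 with limma on FPKM plus 0.1 and plus 1, and -0.0989 to 0.0316 with a library left out. That of CDT1 was -0.0139 with no filter and -0.0732 to 0.0932 with a library left out. With a library left out, CCNE1 ranged from -0.0465 to 0.45 in MPTN against WT, and in MPTN against MPTN24 ORC6 ranged from -0.0236 to 0.114, E2F2 from -0.0660 to 0.0753 and CCNE2 from -0.0754 to 0.109. The cause was not tested.

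CCNE1 and E2F2, at the lowest counts of the set, carry the widest standard errors, 0.33 and 0.18 on the log2 scale. Differences of that size were not detectable for them, and larger ones also went without a call. These include 0.52 for CCNE1 in MPTN against MPTN24 and -0.34 for E2F2 in MPTN24 against WT.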
